A study of Mus musculus with 12 samples.

Results

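*Rpgrip1*, *Dcpp1*, *Dcpp2*, *Dcpp3* and *Slc24a5* are 5 of the 24255 genes in an expression table of mouse oocytes, chosen by name. They were picked as strong falls seen in the same table, so every difference between groups is given for them as a description, with its standard error (SE) and no test. Expression was measured by RNA-Seq in 12 libraries, each made from 20 oocytes at the germinal vesicle (GV) stage, the stage of meiotic arrest before maturation resumes. There were 4 groups of 3 libraries, all from C57BL/6 females aged 3 weeks that had been primed with PMSG, a gonadotropin that drives follicle growth, at 5 IU per mouse and sampled 46 h later. WT mice carried no mutation by their label. MUT mice carried the missense mutation D166G, made by chemical mutagenesis, in Dpagt1, the enzyme of the first step of N-glycan assembly, in every cell of the body. GcKO mice (Dpagt1F/F Gdf9CRE/+) carried floxed Dpagt1 alleles and a Cre recombinase driven in oocytes by the *Gdf9* promoter. AmcKO mice (Dpagt1F/F Amhr2CRE/+) carried the same floxed alleles and a Cre driven in granulosa cells by *Amhr2*, so their oocytes were not the Cre target. Neither the floxed alleles without Cre nor Cre without the floxed alleles was among the groups. The labels do not say which libraries came from separate mice, so the spread between 3 libraries may be partly technical.

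The 5 genes have no common pathway, and each is known best from another tissue. RPGRIP1 is a scaffold protein that holds RPGR at the transition zone, the gate at the base of the cilium, and photoreceptors degenerate without it. SLC24A5 exchanges sodium for calcium and potassium across intracellular membranes of pigment cells and is needed for normal melanin. The *Dcpp* genes (demilune cell and parotid protein) encode small secreted proteins of mouse salivary glands, also made in the oviduct, that are close copies of each other in a tandem array.

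The values are FPKM, fragments per kilobase of transcript scaled to library size, which hold no counts. The sources name cuffnorm, which scales libraries to each other, among the tools used. The values may thus already carry such a scaling, and not only one to the mapped fragments of each library. All 5 genes passed the filter of at least 1 FPKM in at least 1 library, as did 11233 genes in all, but *Dcpp1* did so through AmcKO 4 alone. Of the 60 values of the 5 genes, 25 were listed at 0. Summed over all genes, a WT library held 1167362 to 1226004 FPKM and an AmcKO library 883256 to 1107925, whereas MUT libraries held 589617 to 611597 and GcKO libraries 482314 to 684212. Genes above 0 numbered 9359 to 9622 in WT and 11208 to 11467 in MUT. The scale of the libraries thus moved with the groups, and its part in the falls was not tested beyond the scalings given with each gene. Dpagt1, the targeted gene, was listed at 0 in every WT and AmcKO library, at 0.878, 0.408 and 0.985 FPKM in MUT 1, 2 and 3, and at 0.366 in GcKO 2 alone, so its RNA does not check the labels at this depth. Log2 differences are on the log2(FPKM + 1) scale, on which changes of low genes come out too small.

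The *Dcpp* sequences are shown first, because they decide how well 3 genes can be told apart by reads. On chromosome 17 of GRCm38, all on the forward strand, *Dcpp1* (ENSMUSG00000096445.1) spans chr17:23880876-23882853, *Dcpp2* (ENSMUSG00000096278.8) is annotated at chr17:23880880-23900788 and *Dcpp3* (ENSMUSG00000057417.7) at chr17:23917458-23919441. The annotated span of *Dcpp2* covers that of *Dcpp1* almost wholly, by a transcript that starts near the *Dcpp1* start. The stretch of 90 coding bases with the most differences, taken from 1 exon of each gene, reads as follows, with capitals at the 20 positions where the 3 genes are not all alike.
Dcpp1: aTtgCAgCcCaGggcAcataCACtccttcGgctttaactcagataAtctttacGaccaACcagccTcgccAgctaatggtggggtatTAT
Dcpp2: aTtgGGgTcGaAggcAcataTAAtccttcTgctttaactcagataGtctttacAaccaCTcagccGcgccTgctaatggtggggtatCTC
Dcpp3: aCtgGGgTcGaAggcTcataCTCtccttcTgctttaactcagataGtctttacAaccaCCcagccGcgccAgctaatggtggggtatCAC
These stretches lie at chr17:23882552-23882641, chr17:23900487-23900576 and chr17:23919140-23919229 of GRCm38, and come from the GENCODE M21 transcripts. Over all 510 coding positions that align in the 3 genes, 42 differ, and *Dcpp1* alone departs from the other two at 21 of them, *Dcpp2* at 10 and *Dcpp3* at 11. The coding sequences of *Dcpp2* and *Dcpp3* were identical at 95.3% of aligned positions, those of *Dcpp1* and *Dcpp2* at 93.8% and those of *Dcpp1* and *Dcpp3* at 93.2%. Of all windows of 50 nt, 46.5% of the *Dcpp1* transcript, 30.6% of the *Dcpp2* and 36.5% of the *Dcpp3* transcript occur unchanged in a transcript of another *Dcpp* gene. At 150 nt, the read length, these shares were 4.06%, 0% and 4.34%. Values of single *Dcpp* genes are therefore uncertain to the degree that short or clipped reads were divided among them.

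The 3 *Dcpp* genes also share their upstream sequence. The 250 bases before each RefSeq start are printed here because they show the array as copies of 1 promoter, with the letters TATAA in capitals.
Dcpp1: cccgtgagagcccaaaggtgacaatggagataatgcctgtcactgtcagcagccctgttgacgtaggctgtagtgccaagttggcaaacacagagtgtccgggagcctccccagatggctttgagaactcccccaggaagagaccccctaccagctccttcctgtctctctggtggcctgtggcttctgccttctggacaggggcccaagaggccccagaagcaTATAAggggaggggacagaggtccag
Dcpp2: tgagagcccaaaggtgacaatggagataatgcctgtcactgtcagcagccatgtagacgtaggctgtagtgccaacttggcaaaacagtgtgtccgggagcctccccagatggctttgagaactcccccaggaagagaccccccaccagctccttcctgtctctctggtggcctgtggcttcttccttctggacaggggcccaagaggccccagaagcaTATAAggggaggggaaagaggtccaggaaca
Dcpp3: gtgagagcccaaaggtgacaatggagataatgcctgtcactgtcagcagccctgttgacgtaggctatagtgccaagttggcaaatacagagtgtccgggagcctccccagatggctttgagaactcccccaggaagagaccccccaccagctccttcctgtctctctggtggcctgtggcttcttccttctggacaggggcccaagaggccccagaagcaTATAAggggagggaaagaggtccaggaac
They are chr17:23880626-23880875, chr17:23898472-23898721 and chr17:23917208-23917457 on the forward strand of RefSeq's GRCm38.p6. The promoters of *Dcpp2* and *Dcpp3* were identical at 96.4% of aligned positions, those of *Dcpp1* and *Dcpp3* at 94.9% and those of *Dcpp1* and *Dcpp2* at 93.3%. TATAA, searched on both strands, begins 26 bases before the *Dcpp1* start, 31 before that of *Dcpp2* and 29 before that of *Dcpp3*. It occurs in 22.8% of the 32851 mouse promoters of that length. It is also in the *Rpgrip1* promoter, 134 bases before the start on the opposite strand, and not in the *Slc24a5* window. CCAAT, in 33.8% of promoters, occurred in that of *Rpgrip1* alone among the 5. CANNTG, in 66.2%, occurred in all but *Rpgrip1*. Neither TAATTG, in 7.17%, nor TGACGTCA, in 1.55%, was found in any of the 5. These letters were picked with the data in view, and a match is a description of the sequence.

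*Dcpp3* was the most abundant of the 3 *Dcpp* genes in every library. It was at 68.3, 41.1 and 82.5 FPKM in WT 4, 5 and 6, and at 4.25, 8.25 and 9.76 in MUT 1, 2 and 3. It was at 24.4, 19.7 and 17.99 FPKM in GcKO 1, 2 and 3, and at 30.1, 26.1 and 14.9 in AmcKO 4, 5 and 6. The WT libraries were the 3 highest and the MUT libraries the 3 lowest of the 12, with GcKO and AmcKO in between and overlapping each other. The WT mean was 64.0 ± 21.0 FPKM (SD, n = 3), and the means of the other groups were 7.42 ± 2.84 in MUT, 20.7 ± 3.31 in GcKO and 23.7 ± 7.86 in AmcKO. On the log2 scale MUT differed from WT by -2.95 (SE 0.33), GcKO by -1.54 (SE 0.33) and AmcKO by -1.39 (SE 0.33). The 3 contrasts share the WT libraries. In libraries of pooled oocytes, fewer oocytes with the transcript and less of it in each cannot be told apart. *Dcpp3* was thus lower than WT also in AmcKO, whose oocytes are not the Cre target. Without overlap and lower than WT were 16.9% of all genes tested in MUT, 16.0% in GcKO and 8.61% in AmcKO, shares from which nothing is read here, since these contrasts chose the genes. GcKO lay above MUT by 1.42 (SE 0.33), without overlap, as did 6.42% of all genes tested.

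The *Dcpp3* values of WT rest on few fragments. The value of 1 fragment was carried from library to library by the commonest ratio to AmcKO 4 among genes under 8 FPKM everywhere, and the *Dcpp2* value of AmcKO 4 was assumed to be 1 fragment. A single fragment of these short transcripts then stood for 4.56 to 5.32 FPKM in WT and 2.43 to 3.00 in AmcKO, and for 2 to 2.42 in MUT and 1.80 to 3.00 in GcKO. On that assumption *Dcpp3* had 14.5, 7.73 and 18.1 fragments in WT 4, 5 and 6, and 1.97, 4.12 and 4.03 in MUT 1, 2 and 3. The estimates were 12.7, 10.9 and 5.99 in GcKO and 10.0, 9.22 and 6.15 in AmcKO. Of the 18 *Dcpp* values above 0, 14 came within 0.2 of a whole number of fragments. The *Dcpp2* value of AmcKO 4 is among them by construction, so the count does not test the assumption. The estimates show how few fragments stand behind each value. They are not levels, since they are not corrected for depth. In FPKM as deposited, 1 fragment was estimated to weigh most in WT. Scaled to the same FPKM sum in every library, the difference of *Dcpp3* from WT was -2.02 in MUT, -0.53 in GcKO and -1.10 in AmcKO. GcKO 1, at 42.8, then lay among the WT values of 29.8 to 57.0. AmcKO 4, 5 and 6, at 26.4, 20.0 and 14.3, stayed below them, so on this scale AmcKO differed from WT by more than GcKO did.

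**Figure D1:**
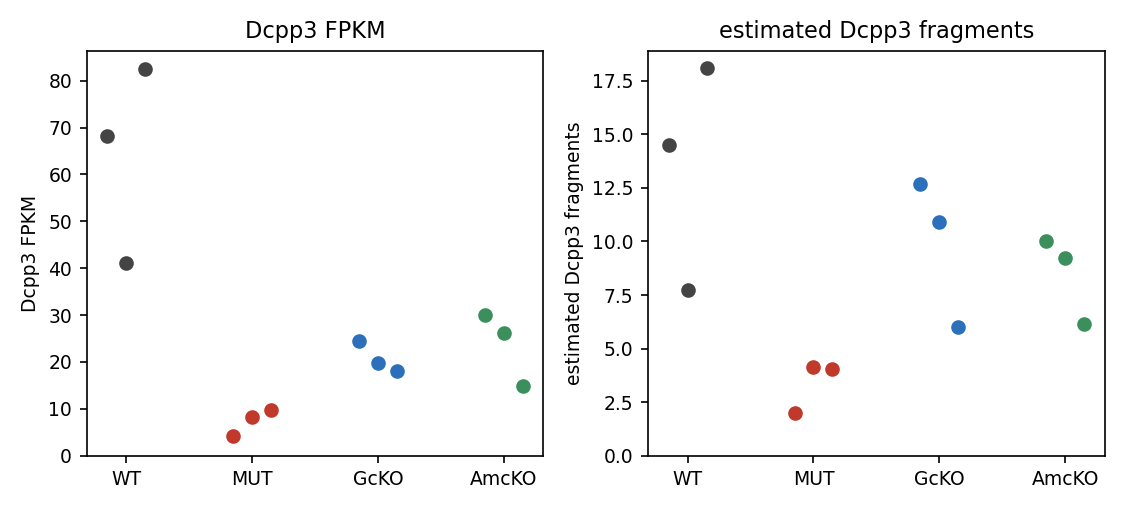
*Dcpp3* in each library (points, 3 per group), in FPKM at left and as estimated fragments at right, with both axes linear from 0. In FPKM the WT libraries, at 41.1 to 82.5, stand above all others. The estimated fragments, 7.73 to 18.1 in WT and 1.97 to 4.12 in MUT, are not corrected for depth and show only how few fragments stand behind each value.

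*Dcpp2* and *Dcpp1* were at the limit of detection. *Dcpp2* was at 4.54 FPKM in WT 4, 4.33 in WT 6, 2.06 in MUT 2, 11.96 in GcKO 3 and 3.00 in AmcKO 4, and was listed at 0 in the other 7 libraries. Except in GcKO 3, where it came to an estimated 3.98, each of these values is within 0.2 of 1 fragment. For AmcKO 4 this holds by the assumption. The groups overlapped, and the log2 difference from WT was -1.09 (SE 0.95) in MUT, -0.40 (SE 0.95) in GcKO and -0.96 (SE 0.95) in AmcKO. With a pseudocount of 0.1 these were -2.19, -1.36 and -2.02. The sign in GcKO rests on the scale and on single libraries, since the mean FPKM was higher in GcKO than in WT, at 3.99 against 2.96, and the log2 difference was 0.22 without GcKO 1 or GcKO 2 and -1.63 without GcKO 3. *Dcpp1* was listed at 0 in 11 libraries and at 2.95 FPKM in AmcKO 4, again about 1 fragment, so it showed no fall that could be measured here. *Dcpp3* exceeded *Dcpp2*, per length, by 15.04-fold in WT 4, 19.05-fold in WT 6, 10.03-fold in AmcKO 4, 4.01-fold in MUT 2 and 1.504-fold in GcKO 3. The sum of the 3 genes was 66.9 ± 23.4 FPKM in WT, 8.10 ± 3.35 in MUT, 24.7 ± 5.12 in GcKO and 25.7 ± 10.6 in AmcKO (SD, n = 3).

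**Figure D2:**
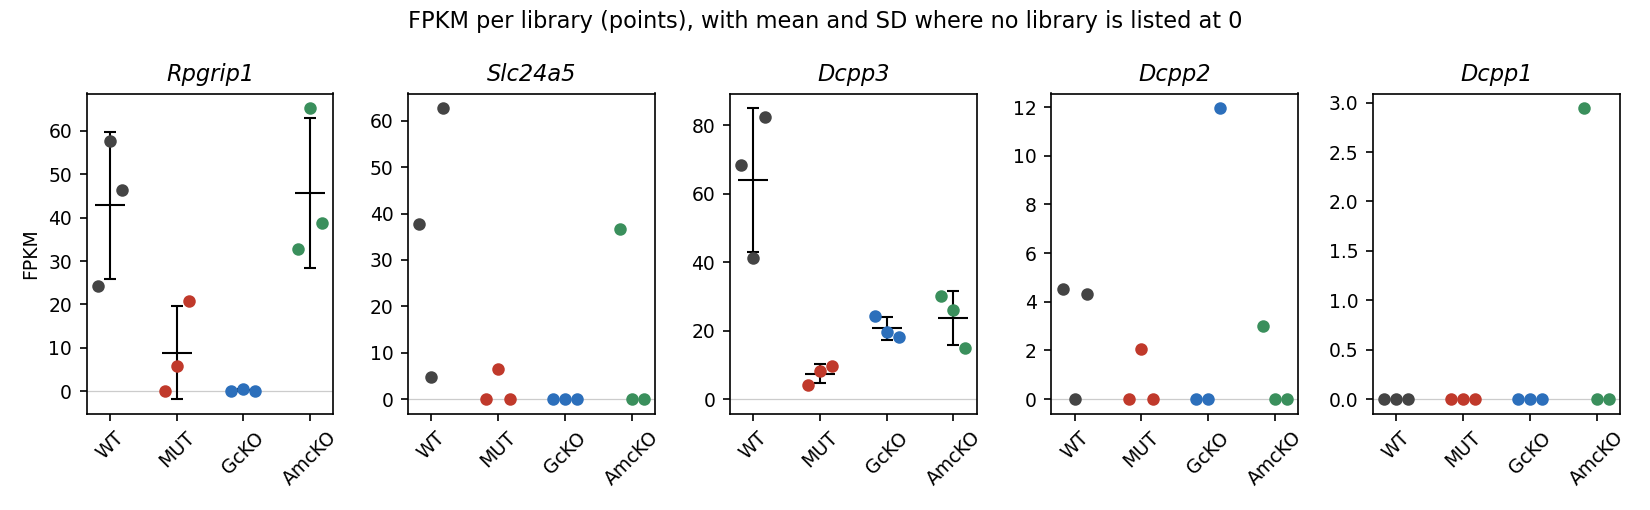
FPKM of the 5 genes in each of the 12 libraries (points), by group, on linear axes of their own, with a horizontal mark for the mean and bars of 1 SD over 3 libraries for *Rpgrip1* and *Dcpp3*, which no library lists at 0. *Rpgrip1* is high in WT and AmcKO and below 0.57 FPKM in GcKO, *Slc24a5* is at 0 in 7 libraries, and *Dcpp1* is above 0 in AmcKO 4 alone.

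*Rpgrip1* (ENSMUSG00000057132.16) lies on the forward strand at chr14:52110704-52163546 of GRCm38, and its longest coding transcript has 25 exons and 5380 nt. It was at 24.4, 57.7 and 46.5 FPKM in WT 4, 5 and 6, and at 32.8, 65.3 and 38.8 in AmcKO 4, 5 and 6. It was at 0.0045, 5.90 and 20.8 FPKM in MUT 1, 2 and 3, and at 0.140, 0.565 and 0.0034 in GcKO 1, 2 and 3. WT and AmcKO overlapped, with means of 42.8 ± 16.96 and 45.6 ± 17.3 FPKM (SD, n = 3). All GcKO libraries and all MUT libraries lay below every WT and AmcKO library, and MUT spread widely, with MUT 3 just under WT 4. The log2 difference from WT was -2.96 (SE 0.77) in MUT, -5.09 (SE 0.77) in GcKO and 0.11 (SE 0.77) in AmcKO, and GcKO differed from MUT by -2.13 (SE 0.77) with overlapping values. Against AmcKO the differences were -3.07 in MUT and -5.20 in GcKO, both without overlap, as for 14.4% and 11.6% of all genes in that direction. Against WT these shares of all genes were 16.9% in MUT and 16.0% in GcKO. The MUT difference was -1.75 without MUT 1 and -3.97 without MUT 3. Scaled to the same sum, MUT 3 stood at 29.9, inside the WT range of 16.8 to 41.9, while the highest GcKO value was 0.782.

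The 2 smallest *Rpgrip1* values lay below those of every gene of like length that was above 0 and had its own entry. Genes that share an entry, as *Rpgrip1* does, were not compared. Among 2870 genes with a coding transcript of 4 to 6 kb and a table entry of their own, the smallest value above 0 was 0.0697 FPKM in MUT 1 and 0.168 in GcKO 3. *Rpgrip1*, at 0.0045 and 0.0034 FPKM there, was below all 1659 and 1590 such genes that were above 0.

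The table gives *Rpgrip1* the same locus entry as *Supt16*, which encodes a subunit of the FACT histone chaperone and is transcribed from the opposite strand. The genes run toward each other and overlap at their 3′ ends over chr14:52160414-52163546, where 926 bases are exonic in both, 17.1% of the *Rpgrip1* and 19.8% of the *Supt16* exon bases. Smart-seq2 does not keep the strand, and no source used here states that strand was used in counting, so fragments of this overlap cannot be told apart. *Supt16* was at 54.0, 21.4 and 21.9 FPKM in WT 4, 5 and 6, at 39.0, 35.7 and 16.2 in MUT 1, 2 and 3, at 35.0, 34.0 and 27.0 in GcKO 1, 2 and 3, and at 51.4, 10.98 and 37.4 in AmcKO 4, 5 and 6. In WT, MUT and AmcKO the library with the highest *Rpgrip1* had the lowest *Supt16*, while in GcKO, where *Rpgrip1* was near 0, it did not.

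*Rpgrip1* plus *Supt16* came to 75.2 ± 5.99 FPKM in WT and 78.9 ± 4.57 in AmcKO, against 39.2 ± 2.31 in MUT and 32.2 ± 4.51 in GcKO (SD, n = 3). The deviations of the 2 genes from their group means correlated at r = -0.96 over the 12 libraries, which share depth and locus. This was the lowest of 44 tail-to-tail overlapping pairs with a shared entry in which both genes had a mean of at least 5 FPKM. The pairs were taken by overlapping gene spans, with no check of shared exon bases. How fragments of shared exons were divided was therefore not tested. The 44 pairs had a median r of 0.0494, with 9.09% below -0.5. These were 0.0251 and 11.2% for 4573 neighbouring pairs with separate entries, taken next to each other among genes past that cut only. By the coefficient of variation averaged over groups, the sum varied less than both genes in 70.5% of the tail-to-tail pairs. It did so in 66.4% of the neighbouring pairs. For *Rpgrip1* and *Supt16* the sum also varied less by that average. Group by group, it did so in WT, MUT and AmcKO but not in GcKO. There the coefficient of variation was 13.99% for the sum and 13.52% for *Supt16*. On the log2 scale the sum differed from WT by -0.92 in MUT, -1.20 in GcKO and 0.07 in AmcKO, and scaled to the same FPKM sum by 0.06, -0.19 and 0.36.

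The share of *Rpgrip1* in that sum is the same under any single factor per library, though quantile normalization changes it. It was 31.1%, 73.0% and 68.0% in WT 4, 5 and 6, and 39.0%, 85.6% and 50.9% in AmcKO 4, 5 and 6. It was 0.0115%, 14.2% and 56.2% in MUT 1, 2 and 3, and 0.397%, 1.63% and 0.0125% in GcKO 1, 2 and 3. By this share GcKO lay below every WT and AmcKO library, while MUT 3 lay within both ranges.

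*Slc24a5* (ENSMUSG00000035183.14) lies on the forward strand at chr2:125068124-125088677, with 9 exons and a transcript of 1954 nt. It was at 37.7, 4.78 and 62.7 FPKM in WT 4, 5 and 6. It was at 6.39 FPKM in MUT 2 and at 36.6 in AmcKO 4, and was listed at 0 in all 3 GcKO, in 2 MUT and in 2 AmcKO libraries. WT 5 lay below MUT 2, and AmcKO 4 was close to WT 4. Only GcKO was thus without overlap with WT, as were 16.0% of all genes tested in that direction. The log2 difference from WT was -3.64 (SE 1.24) in MUT, -4.60 (SE 1.24) in GcKO and -2.85 (SE 1.24) in AmcKO, values set by the pseudocount where libraries are at 0. With a pseudocount of 0.1 they were -5.82 in MUT, -7.82 in GcKO and -4.98 in AmcKO. The AmcKO difference was -4.60 without AmcKO 4 and -1.98 without AmcKO 5.

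*Slc24a5* likewise shares its entry with *Myef2*, a gene for a DNA- and RNA-binding protein on the opposite strand, whose 3′ end overlaps it over chr2:125084628-125088677. In that stretch 714 bases are exonic in both genes, 36.5% of the *Slc24a5* and 22.1% of the *Myef2* exon bases. *Myef2* was the more abundant, at 171 ± 21.3 FPKM in WT, 57.8 ± 5.72 in MUT, 37.1 ± 3.13 in GcKO and 142 ± 30.6 in AmcKO (SD, n = 3). *Myef2* itself fell in MUT, by 1.54 on the log2 scale (SE 0.18, adjusted p = 0.000124), and fell by 2.17 in GcKO (SE 0.18, adjusted p = 2.32e-05), in limma's test over all genes, and its difference stayed negative under every scaling tried. In AmcKO it differed from WT by -0.28 (adjusted p = 0.478). The share of *Slc24a5* in the sum of both was 18.7%, 2.40% and 29.0% in WT 4, 5 and 6, 10.8% in MUT 2 and 19.2% in AmcKO 4. MUT 2 and AmcKO 4 thus lay within the WT range of this share. It was 0% in MUT 1 and 3, in AmcKO 5 and 6 and in all GcKO libraries, below every WT share. The deviations of *Slc24a5* and *Myef2* within groups correlated at r = -0.29 over the 12 libraries.

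**Figure D3:**
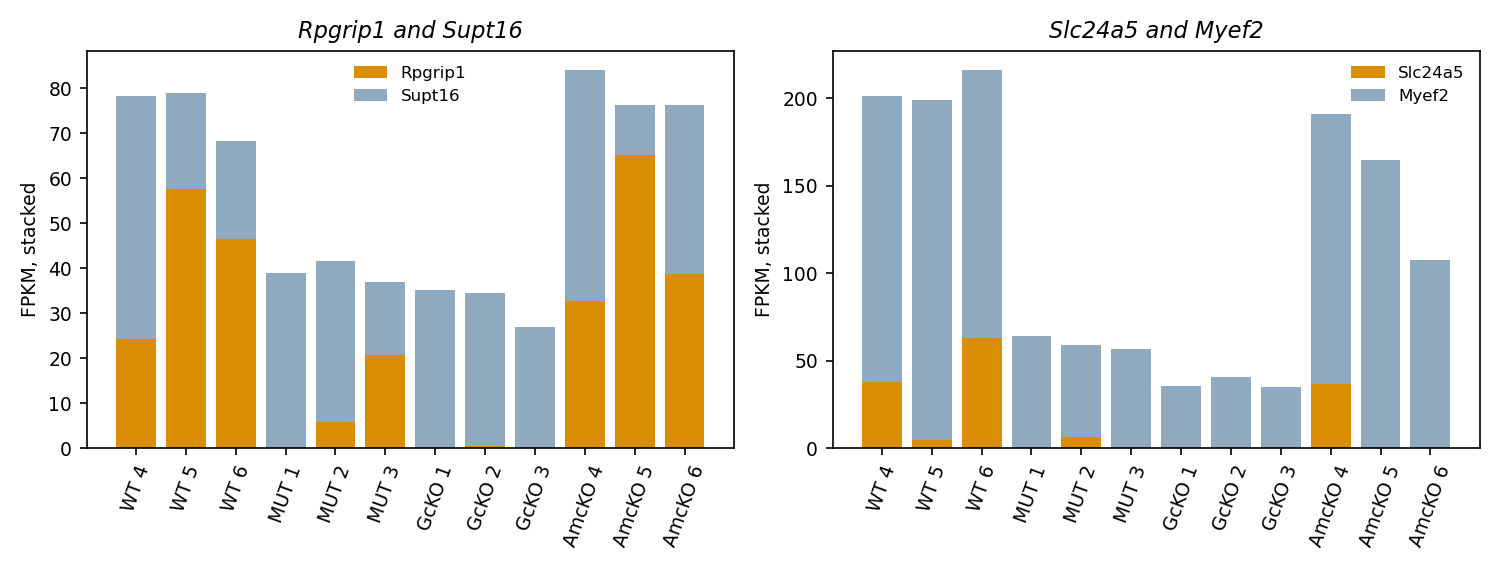
FPKM of *Rpgrip1* (orange) stacked with *Supt16* (grey-blue) at left, and of *Slc24a5* stacked with *Myef2* at right, in each of the 12 libraries, on linear axes from 0. The stacked height for *Rpgrip1* and *Supt16* is 68.3 to 84.2 in WT and AmcKO and 27.0 to 41.6 in MUT and GcKO, while the division between the genes differs from library to library.

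Quantile normalization left the difference of each of *Rpgrip1*, *Slc24a5*, *Dcpp2* and *Dcpp3* from WT within the spread between libraries. Median-of-ratios scaling did so too, but it could move little, since the deposited values were already near that scale. Under it the median of all genes tested was 0.115 in MUT and 0.116 in GcKO, beside 0.121 and 0.120 as deposited. Scaling to the same sum, under which the median of all genes tested becomes 0.71 in MUT and 0.74 in GcKO instead of 0.12 in both, took *Rpgrip1* in GcKO to -4.49. A single factor per library cannot move a value of 0, so the members are not ranked by how far it moved them.

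**Figure D4:**
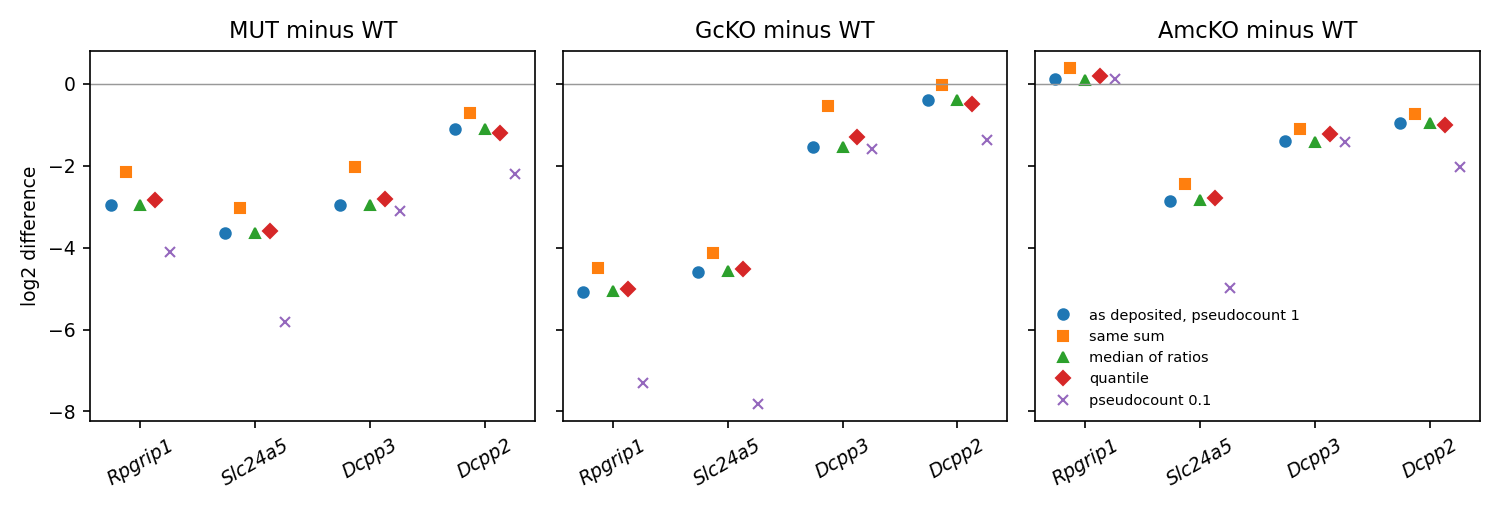
Log2 difference from WT of *Rpgrip1*, *Slc24a5*, *Dcpp3* and *Dcpp2* in MUT, GcKO and AmcKO, with 1 symbol per processing (values as deposited, 3 scalings, and a pseudocount of 0.1). *Rpgrip1* stays at -4.49 or lower in GcKO under all of them, and *Dcpp3* in GcKO moves from -1.54 to -0.53 when libraries are scaled to the same sum.

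Genes around the 3 loci were looked up by the position of their table entry, within 500 kb. Over all genes tested, 11.3% were called below WT and 9.46% above it in MUT, and 11.4% and 8.71% in GcKO, at an adjusted p under 0.05. Around *Rpgrip1*, 14 of 32 listed genes were tested, and 1 was lower and 1 higher in MUT, with 1 lower in GcKO. The lower gene was *Hnrnpc*, an RNA-binding protein gene and the nearest neighbour upstream, which fell by 0.70 in MUT (adjusted p = 0.00881) and by 0.90 in GcKO (adjusted p = 0.00187), a direction that scaling to the same sum turned to 0.29 and 0.12. The higher gene was *Ang4*, a ribonuclease gene, which was listed at 0 in every WT library and had a mean of 1.77 FPKM in MUT (adjusted p = 0.00778). *Chd8*, the next gene beyond *Supt16*, which encodes a chromatin remodeller, was at 1.23 ± 0.296 FPKM in WT, 2.38 ± 0.214 in MUT and 2.54 ± 0.820 in GcKO (n = 3), and passed the test in neither contrast.

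Around the *Dcpp* genes, 17 of 45 listed genes were tested, and 1 was lower and 3 higher in MUT, with 0 lower and 2 higher in GcKO, where 7 had an unadjusted p under 0.05. *Prss21*, the neighbour on one side, and *Sbp* and *Sbpl*, those on the other, were listed at 0 in all 12 libraries, which in a file without counts does not show that they were silent. The lower gene was *Tceb2*, which encodes elongin B and fell in MUT by 1.27 (SE 0.22, adjusted p = 0.00125). Scaled to the same sum it was at -0.29 and no longer passed. *Srrm2*, a splicing factor gene, rose in MUT by 0.73 (adjusted p = 0.0445) and in GcKO by 0.94 (adjusted p = 0.013). *Atp6v0c-ps2*, a pseudogene of a proton pump subunit, rose by 1.03 (adjusted p = 0.0252) and by 0.89 (adjusted p = 0.0489), and *Thoc6*, an mRNA export gene, rose by 1.13 in MUT (adjusted p = 0.0291). Under quantile normalization *Srrm2*, at 0.49 and 0.72, and *Thoc6*, at 0.93, no longer passed. *Atp6v0c-ps2* lost its call in both contrasts without the filter, without limma's variance trend and with only the 2 groups compared, and in GcKO also with a pseudocount of 0.1, and without WT 6 its difference was 0.69 in MUT and 0.55 in GcKO. The parent gene *Atp6v0c*, named after its values were seen, lies at the same place and can share reads with the pseudogene, and it was at 46.4 ± 42.2 FPKM in WT, 7.38 ± 12.8 in MUT and 19.5 ± 33.7 in GcKO (n = 3) and did not pass the test.

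Around *Slc24a5*, 4 of 9 listed genes were tested, and *Myef2* was the lower one in both contrasts. *Ctxn2*, the nearest neighbour beyond it, was at 3.47 ± 0.993 FPKM in WT, 2.56 ± 0.368 in MUT and 1.26 ± 0.379 in GcKO (n = 3), and passed the test in neither. In AmcKO, limma called 0 neighbours of the 3 loci, and 4 had an unadjusted p under 0.05, while it called 0.116% of all genes lower and 0.0979% higher.

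**Figure D5:**
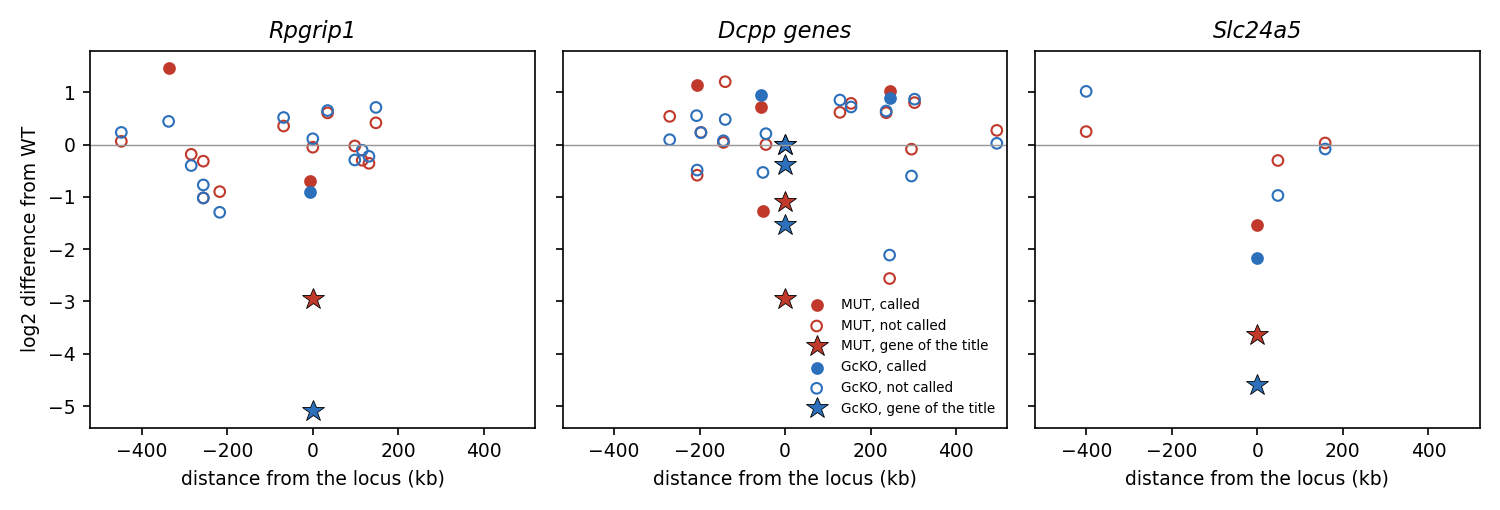
Log2 difference from WT of the tested genes within 500 kb of each locus, against distance in kb, for MUT (red) and GcKO (blue), with filled points for genes at an adjusted p under 0.05 and stars for *Rpgrip1*, *Dcpp1* to *Dcpp3* and *Slc24a5* themselves, which carry no test. The lowest point among the neighbours is *Atp6v0c* in MUT, at -2.56, which did not pass the test, and *Myef2*, at distance 0 from *Slc24a5*, is at -1.54 and -2.17.

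RPGRIP1 acts at the transition zone. Of 25 genes of that compartment, 18 were tested, and 1 was lower in MUT and 2 were lower in GcKO, beside 11.3% and 11.4% of all genes, with a median log2 difference of 0.19 and -0.09 beside 0.12 for all genes in both. *Spata7*, which encodes a direct partner of RPGRIP1 in photoreceptors, was at 46.8 ± 3.43 FPKM in WT, 22.4 ± 0.825 in MUT and 24.1 ± 1.63 in GcKO (n = 3), and fell by 1.03 (adjusted p = 0.00048) and by 0.93 (adjusted p = 0.000919), to -0.06 and 0.08 when scaled to the same sum. *Tmem107*, of the transition zone membrane, fell in GcKO by 0.83 (adjusted p = 0.00958), to 0.19 when scaled to the same sum. *B9d1*, of the same complex, was at 66.9 ± 8.08 FPKM in WT and 60.0 ± 14.9 in MUT, and *Tmem216* at 36.1 ± 5.49 and 22.9 ± 5.76, and neither passed the test.

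Of 8 sodium-calcium exchanger genes, 1 was tested and 5 were at 0 in every library, and limma called 0, with 1 at an unadjusted p under 0.05 in each of MUT and GcKO. *Slc24a3* was at 0.506 ± 0.482 FPKM in WT, 2.44 ± 1.21 in MUT and 2.32 ± 0.999 in GcKO (n = 3), and did not pass the test (adjusted p = 0.0534 and 0.0588). *Slc24a2* and *Slc24a4* had group means under 0.579 FPKM. Of 9 melanosome genes, 4 were tested. *Oca2*, which encodes an anion channel of the melanosome, was the abundant one, at 90.5 ± 15.4 FPKM in WT, 32.4 ± 1.36 in MUT and 44.5 ± 13.6 in GcKO (n = 3), and fell by 1.44 (SE 0.27, adjusted p = 0.00205) and by 1.04 (SE 0.27, adjusted p = 0.0142), to -0.46 and -0.02, no longer past the threshold, when scaled to the same sum. *Mitf*, *Slc45a2* and *Gpr143* did not pass the test, and *Tyrp1*, *Dct* and *Mlana*, which define pigment cells, were at 0 in all 12 libraries.

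Markers of the other cells that make these transcripts were near 0. Of 13 salivary secretory genes 2 were tested, and their summed level was at most 0.459 FPKM in WT and 2.59 in any library, with 7 genes at 0 in all, *Bpifa2* and *Aqp5* among them. Of 11 photoreceptor genes 2 were tested, with a summed level of 1.29 to 2.08 FPKM in WT, 0.942 to 2.43 in MUT and 1.45 to 3.16 in GcKO, and 5 at 0 in all, *Nrl* and *Crx* among them. Of 4 oviduct epithelium genes 1 was tested, with a summed level of at most 1.12 FPKM, and *Foxj1* and *Pax8* were at 0 in all. No gene of these 3 lists was called by limma against WT in MUT or GcKO, and in each of these contrasts 1 gene of the 3 lists had an unadjusted p under 0.05.

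Of 18 granulosa and cumulus genes 5 were tested, with a summed level of 18.4 to 23.1 FPKM in WT and 11.9 to 22.7 in AmcKO, and of 15.02 to 24.5 in MUT and 15.3 to 27.8 in GcKO, and *Amh*, *Foxl2* and *Amhr2* were at 0 in all. Genes of this list above 0 numbered 3 to 4 in WT libraries, 8 in each MUT library, 6 to 7 in GcKO and 5 to 6 in AmcKO. Over all genes, those above 0 also numbered more in MUT, at 11208 to 11467 against 9359 to 9622 in WT. The numbers were 10733 to 11608 in GcKO and 10399 to 10921 in AmcKO. *Cyp19a1*, the aromatase gene, made up most of the summed level, at 17.4 ± 2.53 FPKM in WT and 10.6 ± 2.45 in MUT, and did not pass the test. *Inha*, which encodes the inhibin alpha chain, was listed at 0 in every WT library and was higher in MUT, with a mean of 4.00 FPKM (adjusted p = 0.0026), and its part in the results was not tested. All 15 oocyte genes were tested, and their summed level was 18130 to 19888 FPKM in WT and 13832 to 15371 in AmcKO, and 10242 to 11750 in MUT and 9074 to 12556 in GcKO. Of these, 6 were lower and 1 higher in MUT, and 5 lower and 1 higher in GcKO, beside 11.3% lower and 9.46% higher, and 11.4% and 8.71%, over all genes, but scaling to the same sum turned *Zp3* and *Oosp1* in MUT and *Zp2* and *Oosp1* in GcKO, named after their values were seen, from lower to higher. *Ooep*, of the subcortical maternal complex, was at 6502 ± 607 FPKM in WT, 2420 ± 88.8 in MUT and 2588 ± 452 in GcKO (n = 3) and fell by 1.42 and 1.34, and it no longer passed under quantile normalization (-0.21 and -0.13), while *Bmp15*, an oocyte growth factor gene, was at 1527 ± 264, 1404 ± 148 and 1564 ± 298.

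The genes with the most similar profile were found by Pearson's r of log2(FPKM + 1) over the 12 libraries, which is a description, since the libraries share group, depth and scale. For *Rpgrip1* they were *Zscan4f* (r = 0.92), *Ttll10* (0.91), *Ptges3* (0.90), *I830077J02Rik* (0.90) and *4921524J17Rik* (0.90). *Ptges3*, which encodes the co-chaperone p23, had means of 777 FPKM in WT, 268 in MUT, 205 in GcKO and 737 in AmcKO. For *Dcpp3* they were *3632451O06Rik* (0.94), *Ptbp2* (0.93), *Armc12* (0.91), *Vrk1* (0.91) and *Pla2g4c* (0.90). *Armc12* had means of 47.4 FPKM in WT, 18.7 in MUT, 24.2 in GcKO and 24.9 in AmcKO. All the genes named for *Dcpp3* had its order of groups, which the choice by r favours. For *Slc24a5* they were *Zfp791* (0.87), *Eif4e2* (0.85), *4930579G18Rik* (0.84), *Gabarapl2* (0.83) and *Ercc1* (0.83). For *Dcpp2*, above 0 in 5 libraries, they were *Dnaja4* (0.86), *Cdkn1a* (0.86), *Olfr847* (0.85), *Tefm* (0.81) and *S100pbp* (0.80), and for *Dcpp1* any gene above 0 in AmcKO 4 alone had an r of 1, so no gene is named. Among the 5 genes themselves r was highest between *Dcpp3* and *Slc24a5*, at 0.67, and was 0.56 between *Dcpp2* and *Slc24a5*, 0.51 between *Rpgrip1* and *Dcpp3*, 0.50 between *Rpgrip1* and *Slc24a5* and -0.04 between *Rpgrip1* and *Dcpp2*.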

How the data were processed

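RNA-Seq was done on 12 Smart-seq2 libraries. The authors aligned paired reads of 150 nt to mm10 with tophat2 2.0.13 and deposited 1 FPKM value per gene and library from cufflinks 2.2.1. Gene annotation and strand use are not given in the sources used here, and the sources name 2 different library kits. They also name cuffnorm, without a version. The same file holds results of the authors' own cuffdiff comparisons between groups (fold changes with their p and q), none of which was used. Because FPKM is not a count, limma 3.58.1 in R 4.3.3, with a variance trend, was fitted to log2(FPKM + 1) of the 11233 genes with at least 1 FPKM in 1 library, all 12 libraries in 1 fit with 8 residual degrees of freedom, and p-values were adjusted by Benjamini-Hochberg over all of them. The code was tested on simulated data. Members and lists were chosen with earlier results of these data known. Besides the 5 genes, the text names the adjacent genes and called genes within 500 kb, the 5 most similar profiles, and up to 4 genes per list by mean FPKM. Annotation came from GENCODE M21 and RefSeq, and alignments from Biopython 1.88 under Python 3.11.15. P-values measure only the spread between these libraries. FPKM gives no depth, so no interval for counting error could be set. For the transition zone list, a result on genes above WT is not reported here.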

Additional observations from a re-analysis of the deposited data

How the results depend on the processing

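Alternatives were a pseudocount of 0.1, no filter, a mean of at least 5 FPKM, 3 scalings, limma without its trend, only the 2 groups compared, the label number as a block, and each library left out. The sums of each gene with its partner were chosen after seeing the data. A mean of at least 5 FPKM left out *Dcpp1* and *Dcpp2*. The cause of the changes was not tested.

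A pseudocount of 0.1 took *Slc24a5* to -5.82 in MUT and -7.82 in GcKO and *Rpgrip1* to -7.31 in GcKO, each against WT. Scaling to the same sum took *Rpgrip1* to -4.49 in GcKO and *Dcpp3* to -2.02 in MUT and -0.53 in GcKO. It reversed *Hnrnpc* (0.29 in MUT, 0.12 in GcKO), *Zp3* (0.48 in MUT), *Oosp1* (0.11 and 0.06), *Spata7* (0.08), *Tmem107* (0.19) and *Zp2* (0.29) in GcKO. Quantile normalization reversed *Zp3* (0.39) and *Oosp1* (0.40) in MUT and *Oosp1* (0.34) in GcKO. Leaving out libraries gave for MUT, GcKO and AmcKO in turn *Rpgrip1* -3.97 to -1.75, -5.44 to -4.84 and -0.24 to 0.36, *Slc24a5* -4.67 to -2.94, -5.63 to -3.90 and -4.60 to -1.98, *Dcpp3* -3.24 to -2.65, -1.82 to -1.33 and -1.68 to -1.11, and *Dcpp2* -1.90 to -0.67, -1.63 to 0.22 and -1.78 to -0.54.

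Over all genes, 2332 were called in MUT, 2264 in GcKO and 24 in AmcKO against WT, with 23 in GcKO against MUT, and 729 in MUT and 613 in GcKO against AmcKO. The same-sum scale gave 4894 and 5007 for MUT and GcKO against WT, 71 for GcKO against MUT, and 2558 and 2591 against AmcKO, with 12 and 14 neighbours and 20 list genes in each. Quantile normalization gave 1484 and 1364 for MUT and GcKO against WT, 56 for GcKO against MUT and 249 for GcKO against AmcKO. Without the trend there were 386 for MUT and 199 for GcKO against AmcKO. With only 2 groups there were 1248 for GcKO against WT, 11 for GcKO against MUT, 0 for GcKO against AmcKO in limma, with 2013 at an unadjusted p under 0.05, and 4 neighbours in MUT. For AmcKO against WT there were 44 with a pseudocount of 0.1 and 52 with a mean of at least 5 FPKM. Leaving out libraries gave, in that order against WT, 1493 to 1998 (1546 without MUT 2, 1493 without MUT 3), 1353 to 2304 (1353 without GcKO 1) and 15 to 135 (15 without AmcKO 4, 135 without AmcKO 5), 9 to 24 for GcKO against MUT, 354 to 715 and 313 to 752 against AmcKO, with 4 to 7, 2 to 5 and 0 neighbours, and 8 to 11, 7 to 12 and 0 to 2 list genes in MUT, GcKO and AmcKO.

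The label numbers did not pair the libraries, since same-numbered libraries correlated at -0.04 to 0.04 in their deviations. With the number as a block, 9 genes were called in AmcKO against WT and 9 in GcKO against MUT, and mean differences cannot change by construction. MUT and GcKO share no number with WT or AmcKO, so those contrasts could not be blocked. FPKM holds no counts, so the precision of low values is not known. In FPKM as deposited, a single fragment was estimated to weigh most in WT.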
